A study of Mus musculus with 6 samples.

Results

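The ephrins, Eph receptors, semaphorins, plexins and neuropilins were examined in mouse embryonic fibroblasts (MEFs, connective-tissue cells grown from embryos) heterozygous or wild-type for Lztr1. The 53 genes were taken by symbol from 51826 genes in each table, as every protein-coding gene named as an Eph receptor, an ephrin, a numbered and lettered semaphorin, a plexin or a neuropilin. They comprise 8 ephrins, 14 Eph receptors, 20 semaphorins, 9 plexins and 2 neuropilins. Of these, 50 passed the filter on low counts and entered the test, and 3 Eph receptors did not.

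The heterozygous (Het, Lztr1 +/-) cultures were numbered 11, 15 and 18, and the wild-type (WT, Lztr1 +/+) cultures 10, 12 and 16. All 6 had a C57BL/6 strain background and the same passage range, and messenger RNA was sequenced. The Lztr1 protein recruits RAS-family GTPases to a cullin ubiquitin ligase. How the mutant allele was made, and whether each culture came from its own embryo, is not stated in the labels, so the p-values below reflect spread between cultures that may be technical in part.

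Ephrins are ligands held on the cell surface that bind Eph receptor tyrosine kinases on a neighbouring cell, and signals pass into both cells. Ephrin-A ligands are tethered by a lipid anchor, whereas ephrin-B ligands cross the membrane. Semaphorins are secreted (class 3) or membrane-bound ligands of the plexins, and most class 3 members need a neuropilin as co-receptor. Plexins carry a cytoplasmic domain that inactivates small GTPases of the RAS superfamily, and the whole system steers axons, vessels, neural crest and mesenchymal cells during development.

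Libraries held 11025286 to 21885101 expected counts, and 3 counts equalled 0.138 to 0.275 CPM (counts scaled by library total and composition factor). Lztr1 matched the genotype label in every culture, at 44.9 ± 1.01 CPM in Het and 90.4 ± 6.21 CPM in WT cultures (SD, n = 3 each). It fell by 1.01 on the log2 scale (SE 0.066, adjusted p = 0.00457 by edgeR), and this p became 0.0616 to 0.0759 when any culture but WT culture 16 was left out. All 12 fibroblast markers exceeded 1 TPM (RSEM's length-scaled transcript level), with summed levels of 10487 to 11537 TPM in Het and 10863 to 12653 TPM in WT cultures. Of these 12 markers, 5 (Col1a1, Pdgfrb, Dcn, Lum and Twist1) had an unadjusted p under 0.05, all with lower Het means and none past the adjusted threshold, or 41.7% beside 12.2% of all genes. The part of this in the lower guidance genes below was not tested. WT culture 16 stood apart from WT cultures 10 and 12 in many of the genes below, so values without it are given. It was singled out after the values were seen. Without it edgeR called 896 of all genes, and without any other culture 0. The p-values without WT culture 16 therefore describe its weight and do not test the differences. Cultures 10, 11 and 12 and cultures 15, 16 and 18 form the number runs used below, and cultures 11 and 16 were registered later than the other 4. Neither the runs nor the registration is named as a batch in the labels. Within each run the Het and WT cultures also differ in registration, and within each registered set they also differ in run. Differences given within runs or registered sets cannot separate genotype from these, and they are not separate checks. Without WT culture 16, the run 15 to 18 holds Het cultures only. A run term in that fit leaves Het culture 11 alone against WT cultures 10 and 12, so no p-values or calls are given for it. Xist was at 95.1 to 104.7 TPM in Het culture 11 and WT cultures 10 and 16 and at 0.02 to 0.03 TPM in the others, so both groups held female and male cultures in unequal numbers. Within cultures 15 to 18 the Het cultures were male and the WT culture female.

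Most of the guidance genes were expressed in these fibroblasts. Averaged over the 6 libraries, 27 reached 10 TPM, 22 lay between 1 and 10 TPM and 4 were below 1 TPM. The 4 highest, Plxnb2, Nrp1, Nrp2 and Plxna1, made up 34.1% of the summed level. The sum over all 53 genes was 978 ± 71.9 TPM in Het and 1019 ± 51.1 TPM in WT cultures (SD, n = 3 each), and the groups overlapped. By family, the sums were 166 ± 13.6 TPM in Het and 179 ± 6.70 TPM in WT cultures for ephrins, 208 ± 16.4 and 219 ± 15.5 TPM in Het and WT for Eph receptors, and 215 ± 26.7 and 222 ± 18.5 TPM in Het and WT for semaphorins. Plexins summed to 268 ± 9.51 TPM in Het and 284 ± 3.52 TPM in WT, and neuropilins to 121 ± 8.96 TPM in Het and 115 ± 14.6 TPM in WT. Plxnb2 made up 58.6% of the plexin sum in Het and 63.2% in WT cultures, and its direction differed between TPM and counts, as given below. The lowest were Epha6, Epha8 and Epha10, with 0 to 15 counts in a library, and the X-linked plexin Plxnb3, with 7 to 30 counts. Epha6 was listed at 0 in Het culture 15 and Epha6 and Epha8 in WT culture 16.

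**Figure D1:**
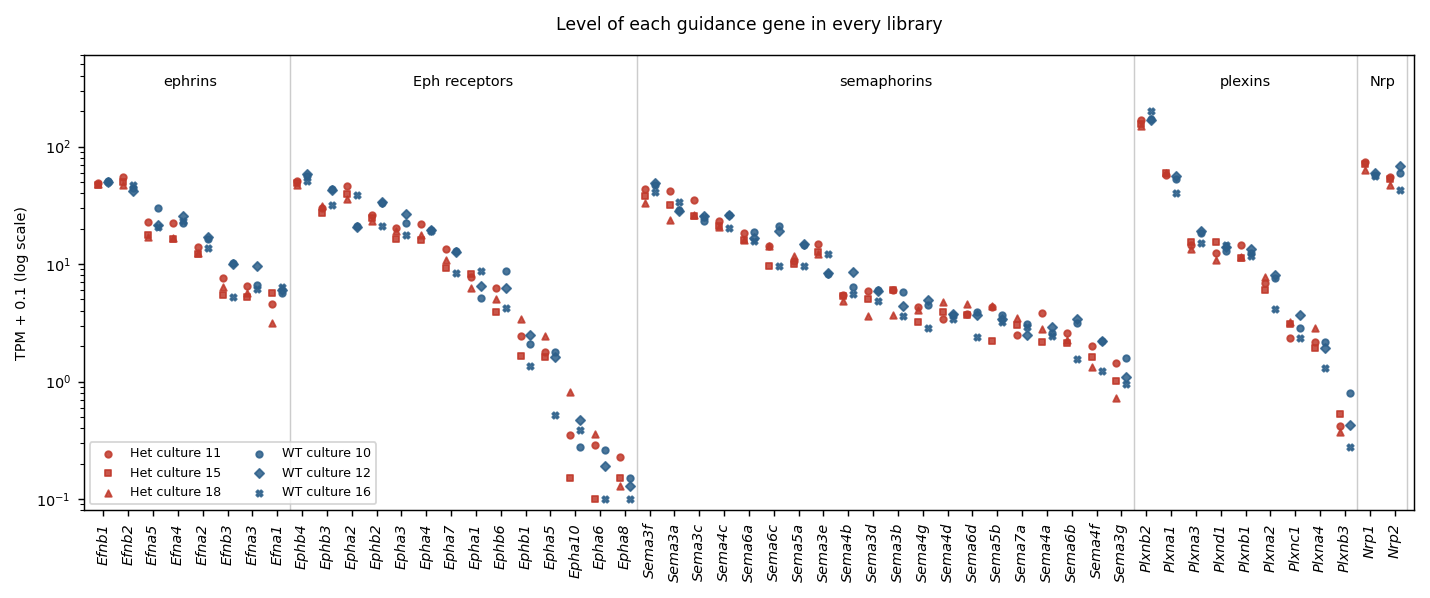
Level of each of the 53 genes in every library, as TPM plus 0.1 on a log axis, ordered within family by mean level, with Het cultures (red) left of WT cultures (blue). Plxnb2 is the highest of all, at 150 to 167 TPM in Het and 169 to 199 TPM in WT cultures, and Epha6, Epha8 and Epha10 lie below 1 TPM in every library.

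None of the 50 tested genes differed between Het and WT cultures at an adjusted p under 0.05 by the quasi-likelihood test of edgeR, with Benjamini-Hochberg adjusted p-values over 14652 genes, where 0.00683% of all genes, Lztr1 alone, did. At an unadjusted p under 0.05 there were 12 of 50, or 24.0%, beside 12.2% of all tested genes. Of the 12, 4 had a higher Het mean (Nrp1, Plxna1, Efnb2 and Epha2) and 8 a lower one (Ephb3, Ephb4, Efna2, Efna4, Efna5, Sema3f, Sema4b and Sema6c), where 5.56% and 6.65% of all genes did so. The groups did not overlap in CPM for 7 of 50, or 14%, beside 17.7% of all genes, with Het higher in 2 (7.75% of all genes) and lower in 5 (9.97%). A log2 difference of 0.5 or more in size was fitted in 3 of 50, Epha2, Epha5 and Ephb1, beside 6.29% of all genes. The median log2 difference (Het over WT) was -0.09 over the 50 genes and -0.00 over all genes, and the Het mean was higher in 19 of 50, or 38.0%, beside 49.6%. DESeq2 called 1 of the 50, Nrp1, where it called 0.764% of all genes, and limma on TPM called 0. In bulk cultures, fewer cells of a type and less RNA per cell cannot be told apart.

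The count of 12 at an unadjusted p under 0.05 depended on the cultures. It was 10 without Het culture 11 (12.7% of all genes), 5 without Het culture 15 (8.07%) and 7 without Het culture 18 (7.37%). It was 4 without WT culture 10 (6.20% of all genes), 4 without WT culture 12 (7.60%) and 23 without WT culture 16 (23.6%). With all cultures it was 9 with DESeq2 (8.94% of all genes), 12 with library totals as the scale (12.8%), 17 of all 53 without a filter on low counts (9.19%) and 8 with effective length as an offset (11%). It was 6 with limma on log2(TPM + 1) (11.6%) and on log2(TPM + 0.1) (11.5%). A term for the culture number run gave 7 (11.3%), one for registration 13 (12.6%) and one for Y-linked expression 9 (9.88%).

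**Figure D2:**
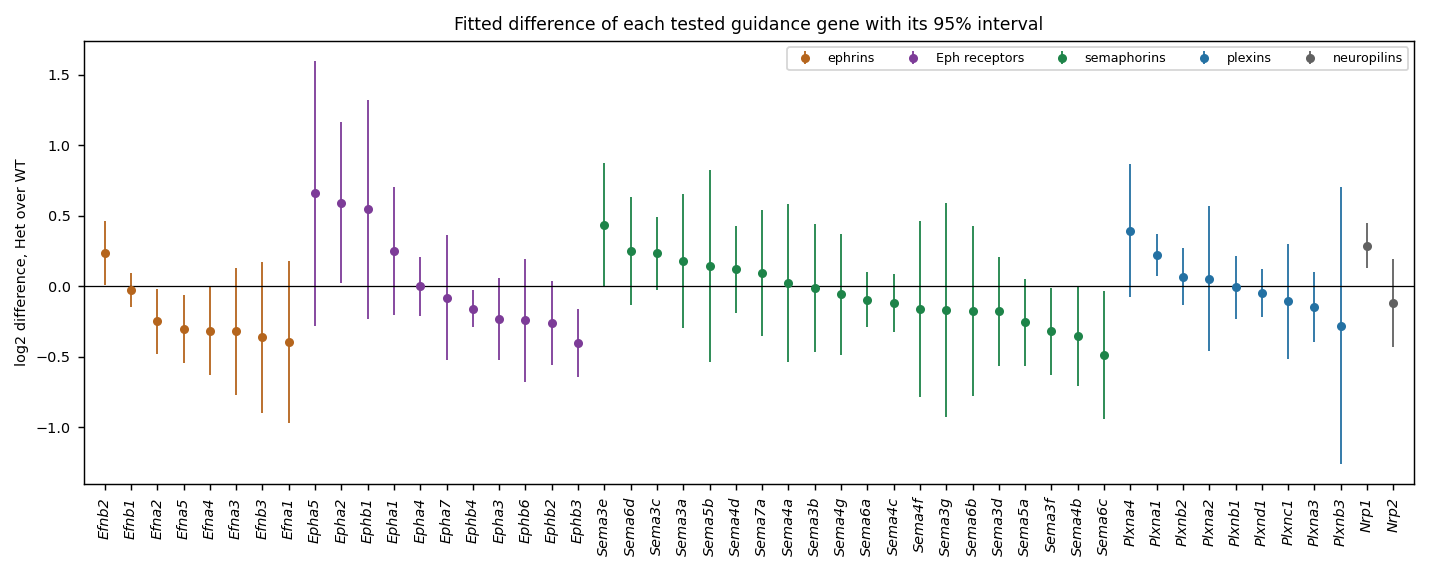
Fitted log2 difference (Het over WT) of the 50 tested genes, ordered within family, with bars for the 95% interval derived from edgeR's fit. Ephrins lie mostly below 0, and the intervals of Nrp1, Plxna1, Ephb3, Ephb4 and Efna5 are among those that do not reach 0.

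The promoters below show the sequence context of genes that stand for the patterns in CPM described next: Nrp1 (every Het culture above every WT culture), Ephb3 and Efna5 (every Het culture below) and Epha2 (WT culture 16 among the Het cultures). They are RefSeq sequences of build GRCm38.p6, 250 bases before to 50 after the start that RefSeq gives the gene, 5′ to 3′ on the gene's strand, at chr8:128358823-128359122 (plus strand), chr16:21204545-21204844 (plus), chr17:62881268-62881567 (minus) and chr4:141300971-141301270 (plus). The RefSeq starts are 128359073 for Nrp1, 21204795 for Ephb3, 62881317 for Efna5 and 141301221 for Epha2. The gene bounds printed with each gene below come from the GENCODE annotation, which starts Nrp1 at 128358604, so the Nrp1 window lies inside those bounds. Capitals mark matches, on either strand, to the GC box GGGCGG or to the TEAD motif GGAATG, and no matches overlap.
Nrp1: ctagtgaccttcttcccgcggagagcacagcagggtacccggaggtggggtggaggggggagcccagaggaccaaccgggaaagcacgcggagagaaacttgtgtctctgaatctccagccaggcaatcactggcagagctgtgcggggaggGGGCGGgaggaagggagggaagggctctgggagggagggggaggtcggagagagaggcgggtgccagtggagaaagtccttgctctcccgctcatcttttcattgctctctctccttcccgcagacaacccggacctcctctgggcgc
Ephb3: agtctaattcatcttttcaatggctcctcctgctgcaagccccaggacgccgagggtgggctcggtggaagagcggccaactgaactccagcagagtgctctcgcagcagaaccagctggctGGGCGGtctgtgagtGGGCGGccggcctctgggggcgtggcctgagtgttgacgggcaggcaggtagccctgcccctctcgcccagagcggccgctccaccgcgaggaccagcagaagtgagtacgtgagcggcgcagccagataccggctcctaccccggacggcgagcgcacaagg
Efna5: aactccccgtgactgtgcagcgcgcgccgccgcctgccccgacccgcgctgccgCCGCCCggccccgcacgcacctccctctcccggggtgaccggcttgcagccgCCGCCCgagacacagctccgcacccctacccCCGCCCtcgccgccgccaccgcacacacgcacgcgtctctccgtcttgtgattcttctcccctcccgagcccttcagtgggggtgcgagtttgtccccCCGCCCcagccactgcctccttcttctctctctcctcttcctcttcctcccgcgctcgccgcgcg
Epha2: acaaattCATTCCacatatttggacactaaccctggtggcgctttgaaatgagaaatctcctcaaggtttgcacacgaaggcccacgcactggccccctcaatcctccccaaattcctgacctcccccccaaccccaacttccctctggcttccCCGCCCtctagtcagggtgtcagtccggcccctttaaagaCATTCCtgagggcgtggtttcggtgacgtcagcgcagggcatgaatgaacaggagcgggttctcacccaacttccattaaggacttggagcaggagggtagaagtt
The GC box occurs once in Nrp1, 2 times in Ephb3, 4 times in Efna5 and once in Epha2. The TEAD motif occurs 2 times in Epha2 and not in the other 3 windows. The AP-1 motif TGANTCA and the ETS motif CCGGAAG occur in none of the 4 windows. Promoters were listed for 47 of the 53 genes, 61 in all, and 75.4% of these held a GC box beside 35.7% of all 32851 promoters of the same length. The TEAD motif was in 11.5% of the guidance gene promoters and 14.7% of all promoters, the AP-1 motif in 4.92% and 7.81%, and the ETS motif in 3.28% and 8.86%. The guidance gene promoters had a median GC content of 64.0%, against 52.7% over all promoters. These matches describe the letters only.

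Of the 8 ephrins, 7 had a lower Het mean, and among them all 5 ephrin-A genes had log2 differences of -0.39 to -0.25, none past the adjusted threshold. The Het mean was higher in 12.5% of the ephrins, beside 49.6% of all genes. Efna5 (ENSMUSG00000048915.12, chromosome 17, 62604184 to 62881317, minus strand, mm10), an ephrin-A that repels growing axons, measured 44.7, 36.5 and 34.2 CPM in Het cultures 11, 15 and 18, against 49.3, 45.3 and 48.4 CPM in WT cultures 10, 12 and 16. The groups did not overlap in CPM, although Het culture 11 lay close to WT culture 12. In TPM they overlapped, with Het culture 11 at 22.9, above WT cultures 12 and 16 at 21.3 and 20.7. The log2 difference was -0.30 (SE 0.10, adjusted p = 0.337 by edgeR), with -0.08 within cultures 10 to 12 and -0.45 within 15 to 18. Efna2 measured 16.6, 14.8 and 14.6 CPM in Het cultures 11, 15 and 18, against 18.7, 19.1 and 16.8 CPM in WT cultures 10, 12 and 16. Its groups lay next to each other without overlap in CPM, at a log2 difference of -0.25 (SE 0.10, adjusted p = 0.390 by edgeR), and the difference was -0.02 in the later registered pair. In TPM its groups overlapped, with Het culture 11 at 13.96 and WT culture 16 at 13.68.

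Efna1, Efna3 and Efna4 lie within 66.3 kb of each other on the minus strand of chromosome 3 (89271733 to 89338028 in mm10). Their log2 differences were -0.39 (SE 0.25), -0.32 (SE 0.20) and -0.32 (SE 0.14), each with overlapping groups. Efna4 averaged 15.9 ± 2.87 CPM in Het and 20.1 ± 1.25 CPM in WT cultures (SD, n = 3 each), and its adjusted p was 0.405 by edgeR. Exons of Efna3 and Efna4 overlap antisense genes that held 17.0 and 38.2 counts in all libraries, and whether the counting used strand is not stated. The ephrin-A share of the summed ephrin TPM was 38.6%, 35.6% and 35.0% in Het cultures 11, 15 and 18, against 43.3%, 43.9% and 40.7% in WT cultures 10, 12 and 16. Every Het culture lay below every WT culture in this share, which was chosen after the values were seen and has no test.

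The ephrin-B ligands, which signal back into the cell that carries them, had log2 differences from -0.36 in Efnb3 to 0.24 in Efnb2. Efnb1, on the X chromosome, was the steadiest of the highly expressed ligands, at 92.1, 86.8 and 89.95 CPM in Het cultures 11, 15 and 18 and 90.6, 89.4 and 93.9 CPM in WT cultures 10, 12 and 16. Its log2 difference was -0.03, with a 95% interval of -0.15 to 0.09. Efnb2 (chromosome 8, 8617434 to 8661242, minus strand), a ligand of EphB4 known for marking arteries, measured 153, 144 and 132 CPM in Het cultures 11, 15 and 18, against 118, 107 and 139 CPM in WT cultures 10, 12 and 16. WT culture 16 lay within the Het range, and the log2 difference of 0.24 (SE 0.10, adjusted p = 0.392 by edgeR) was 0.44 within cultures 10 to 12 and -0.01 within 15 to 18. Without WT culture 16 it was 0.35 (adjusted p = 0.0403 by edgeR, within 0.0403 to 0.773 over the alternatives). With the run as a term as well it was 0.44, from Het culture 11 against WT cultures 10 and 12. Efnb3 had 13.8, 10.05 and 11.4 CPM in Het cultures 11, 15 and 18, against 18.1, 17.5 and 9.80 CPM in WT cultures 10, 12 and 16, so that WT culture 16 was the lowest of all.

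Of the 11 tested Eph receptors, 5 had a higher and 6 a lower Het mean. Among the EphB receptors, which bind ephrin-B ligands, Ephb3 and Ephb4 had Het cultures below all WT cultures in CPM. Ephb3 (ENSMUSG00000005958.14, chromosome 16, 21204755 to 21223305, plus strand) measured 72.5, 66.2 and 71.8 CPM in Het cultures 11, 15 and 18, against 101.9, 99.4 and 77.1 CPM in WT cultures 10, 12 and 16. WT culture 16 stood nearer the Het cultures than the other WT cultures, and the groups did not overlap. The log2 difference was -0.40 (SE 0.10, adjusted p = 0.313 by edgeR), and without WT culture 16 it was -0.52 (adjusted p = 0.00717 by edgeR). Over the edgeR, DESeq2 and limma alternatives the adjusted p was 0.00717 to 0.773. Without WT culture 16 and with the run as a term, the log2 difference was -0.47, from Het culture 11 against WT cultures 10 and 12. It was -0.47 within cultures 10 to 12, -0.16 within 15 to 18, and -0.54 and -0.09 in the first and later registered sets. Ephb3 lies 3.68 Mb from Lztr1 on the same chromosome, and the part of that linkage in the difference was not tested.

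Ephb4 (chromosome 5, 137350109 to 137378669, plus strand), the main receptor of ephrin-B2 in veins, measured 128, 124 and 117 CPM in Het cultures 11, 15 and 18, against 139, 141 and 131 CPM in WT cultures 10, 12 and 16. The difference was small, at -0.16 (SE 0.057, adjusted p = 0.358 by edgeR), with -0.13 within each run, and -0.22 and -0.04 in the first and later registered sets. In TPM the groups of Ephb4 overlapped, with Het culture 11 at 51.18 and WT culture 16 at 51.03. Ephb2 measured 88.4, 82.9 and 79.0 CPM in Het cultures 11, 15 and 18, against 113, 108 and 78.0 CPM in WT cultures 10, 12 and 16. WT culture 16 was the lowest of all 6, and the log2 difference of -0.26 (SE 0.13) became -0.40 without it (adjusted p = 0.0137 by edgeR, the lowest of 0.0137 to 0.827 over the alternatives). With the run as a term as well Ephb2 was at -0.32, from Het culture 11 against WT cultures 10 and 12. Ephb1 was at 2.41 ± 0.887 TPM in Het and 1.88 ± 0.559 TPM in WT cultures, with a log2 difference of 0.55 (SE 0.34), and the kinase-dead receptor Ephb6 had a difference of -0.24 (SE 0.19).

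Epha2 (ENSMUSG00000006445.3, chromosome 4, 141301240 to 141329384, plus strand) encodes an EphA receptor whose gene is a known target of ERK signalling. It measured 104.7, 90.7 and 78.8 CPM in Het cultures 11, 15 and 18, against 47.4, 45.3 and 90.3 CPM in WT cultures 10, 12 and 16. WT culture 16 lay among the Het cultures, at about the level of Het culture 15. The log2 difference was 0.59 (SE 0.25, 95% interval 0.02 to 1.17, adjusted p = 0.395 by edgeR), with 1.17 within cultures 10 to 12 and -0.09 within 15 to 18. Without WT culture 16 it was 0.99 (adjusted p = 0.00786 by edgeR), and WT cultures 10 and 12, which remain, are of 1 run. With the run as a term as well it was 1.18, from Het culture 11 against WT cultures 10 and 12. Over the edgeR, DESeq2 and limma alternatives the adjusted p was 0.00786 to 0.784. Epha4, a receptor that binds ephrins of both kinds, differed by 0.00 (95% interval -0.21 to 0.21). Epha5 had the largest fitted difference of the 50, 0.66 (SE 0.41), at 1.67, 1.51 and 2.34 TPM in Het cultures 11, 15 and 18, against 1.67, 1.52 and 0.42 TPM in WT cultures 10, 12 and 16. WT culture 16 was far below the other cultures, and without it the difference was 0.28. Epha1 shares 236 exonic bases with Zyx on the opposite strand, which held 53249 counts, so its counts are uncertain. The EphA share of summed Eph receptor TPM was 48.9%, 46.0% and 46.0% in Het cultures 11, 15 and 18, against 36.6%, 38.1% and 45.9% in WT cultures 10, 12 and 16, and WT culture 16 was at the Het level.

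**Figure D3:**
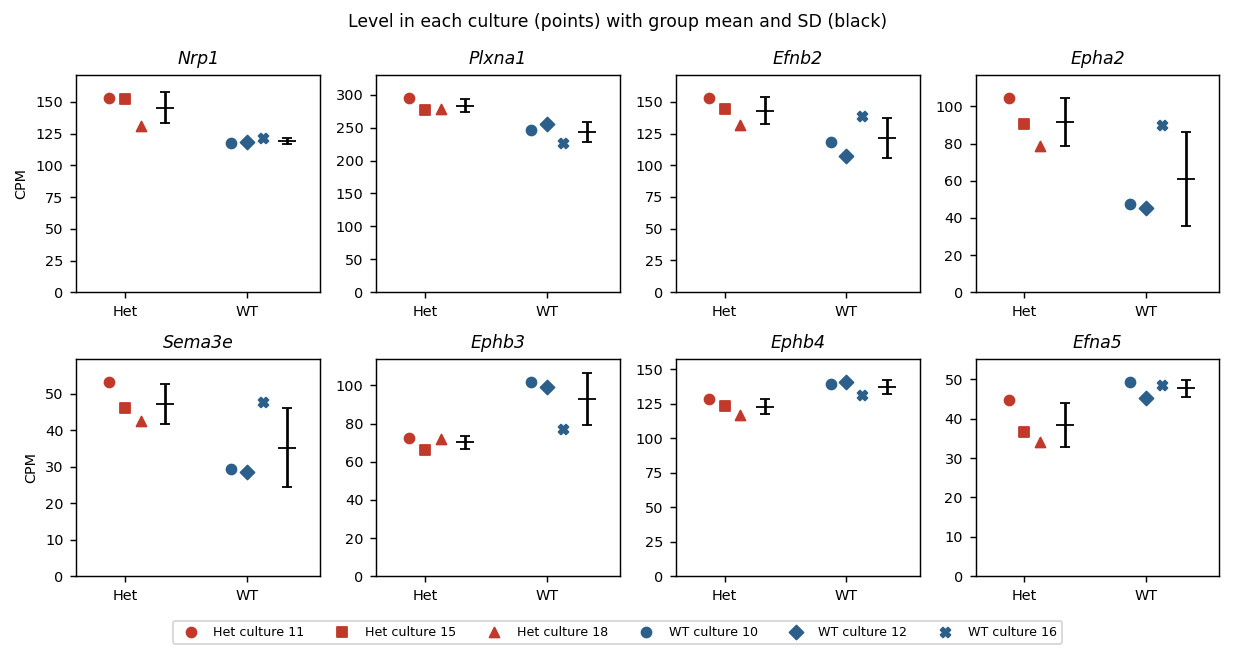
CPM of 8 guidance genes in each culture, Het (red) left of WT (blue), with the mean and SD of each group in black (n = 3 each) and every axis starting at 0. In Nrp1 and Plxna1 every Het culture lies above every WT culture and in Ephb3, Ephb4 and Efna5 below, while WT culture 16 lies with the Het cultures in Efnb2, Epha2 and Sema3e.

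Of the 20 semaphorins, 8 had a higher and 12 a lower Het mean, or 40% higher, beside 49.6% of all genes. An unadjusted p under 0.05 was found in 3, or 15%, beside 12.2% of all genes. All of these were lower in Het cultures, as were 6.65% of all genes at that level. Sema3f, a secreted repellent that acts through neuropilin-2, measured 60.5, 53.2 and 40.5 CPM in Het cultures 11, 15 and 18, against 67.5, 66.3 and 59.3 CPM in WT cultures 10, 12 and 16. Het culture 11 overlapped the WT range, and the log2 difference was -0.32 (SE 0.13, adjusted p = 0.400 by edgeR). Sema6c, a transmembrane semaphorin, measured 20.1, 14.8 and 19.7 CPM in Het cultures 11, 15 and 18, against 30.5, 27.6 and 18.2 CPM in WT cultures 10, 12 and 16. WT culture 16 lay inside the Het range, and the difference of -0.49 (SE 0.20, adjusted p = 0.390 by edgeR) became -0.67 without it (adjusted p = 0.0378 by edgeR, the lowest of 0.0378 to 0.789 over the alternatives). With the run as a term as well Sema6c was at -0.53, from Het culture 11 against WT cultures 10 and 12. Sema4b measured 12.1, 11.9 and 10.3 CPM in Het cultures 11, 15 and 18, against 13.6, 17.9 and 12.5 CPM in WT cultures 10, 12 and 16. Its groups lay side by side without overlap, at -0.35 (SE 0.15, adjusted p = 0.409 by edgeR).

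Sema3a, Sema3c and Sema3e, also of the secreted class, had higher Het means with overlapping groups. Sema3e (chromosome 5, 14025276 to 14256689, plus strand), which binds plexin-D1 without a neuropilin, measured 53.3, 46.2 and 42.5 CPM in Het cultures 11, 15 and 18, against 29.3, 28.6 and 47.8 CPM in WT cultures 10, 12 and 16. As in Epha2, WT culture 16 lay with the Het cultures, and the log2 difference of 0.44 (SE 0.19, adjusted p = 0.414 by edgeR) was 0.72 without it (adjusted p = 0.0132 by edgeR). With the run as a term as well it was 0.88, from Het culture 11 against WT cultures 10 and 12. Over the edgeR, DESeq2 and limma alternatives the adjusted p was 0.0132 to 0.785. Sema3c averaged 93.4 ± 15.1 CPM in Het and 79.6 ± 5.32 CPM in WT cultures, with Het culture 11 at 111 CPM above all others. Sema3a, the founding axon repellent of the family, measured 109, 85.8 and 59.8 CPM in Het cultures 11, 15 and 18, against 68.1, 67.6 and 91.1 CPM in WT cultures 10, 12 and 16. The Het range spanned the WT range, and the log2 difference of 0.18 (SE 0.21) was -0.05 without Het culture 11. Sema4c, the highest of class 4, differed by -0.12 (SE 0.089), and the 20 semaphorins ran from -0.49 in Sema6c to 0.44 in Sema3e.

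Of the 9 plexins, 4 had a higher and 5 a lower Het mean. Plxna1 (ENSMUSG00000030084.11, chromosome 6, 89316314 to 89362620, minus strand), a signalling receptor for class 3 and class 6 semaphorins, had every Het culture above every WT culture. It measured 295, 277 and 278 CPM in Het cultures 11, 15 and 18, against 247, 256 and 226 CPM in WT cultures 10, 12 and 16. The log2 difference was 0.22 (SE 0.065, adjusted p = 0.313 by edgeR), and it was 0.23 within cultures 10 to 12, 0.30 within 15 to 18, and 0.14 and 0.38 in the first and later registered sets. Plxna1 shares 970 exonic bases with an antisense gene that held 44.4 counts in all. Plxna4 differed by 0.40 (SE 0.20), Plxna3 by -0.15 (SE 0.11), Plxnd1 by -0.05 (SE 0.074) and Plxnb3 by -0.28 (SE 0.43), each with overlapping groups.

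For Plxnb2 (chromosome 15, 89155549 to 89180788, minus strand), a receptor of class 4 semaphorins and the most abundant guidance transcript, the direction depended on whether effective length entered. In counts it measured 519, 487 and 461 CPM in Het cultures 11, 15 and 18, against 481, 506 and 411 CPM in WT cultures 10, 12 and 16, a log2 difference of 0.07 (SE 0.088). In TPM it measured 167, 154 and 150 in Het cultures 11, 15 and 18, against 172, 169 and 199 in WT cultures 10, 12 and 16, where no Het culture reached the WT range. The effective length that the authors' estimates gave it, an average over transcripts weighted by abundance, was 5019, 5015 and 5036 bases in Het cultures 11, 15 and 18, against 4634, 5074 and 3229 bases in WT cultures 10, 12 and 16. With effective length as an offset the log2 difference was -0.18 (SE 0.099, adjusted p = 0.528 by edgeR, within 0.421 to 0.944 over the alternatives). WT culture 16 thus had the lowest CPM and the highest TPM of this gene.

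Nrp1 (ENSMUSG00000025810.9, chromosome 8, 128358604 to 128503363, plus strand), the co-receptor of Sema3a and of VEGF-A, had the smallest unadjusted p of the 50 genes. It measured 153, 152 and 131 CPM in Het cultures 11, 15 and 18, against 118, 118 and 122 CPM in WT cultures 10, 12 and 16. Every Het culture lay above the WT cultures, which differed little among themselves, and WT culture 16 stood with the other WT cultures here. The ratio was 1.22 and the log2 difference 0.29 (SE 0.069, 95% interval 0.13 to 0.45), at an adjusted p of 0.313 by edgeR and 0.0467 by DESeq2, the lowest of 0.0467 to 0.773 over the alternatives. It was 0.38 within cultures 10 to 12, 0.22 within 15 to 18, and 0.26 and 0.33 in the first and later registered sets. Nrp2, the co-receptor preferred by Sema3f, measured 211, 208 and 181 CPM in Het cultures 11, 15 and 18, against 226, 255 and 171 CPM in WT cultures 10, 12 and 16, and its log2 difference was -0.12 (SE 0.14, 95% interval -0.43 to 0.20). The ratio of Nrp1 to Nrp2 in TPM was 1.35, 1.36 and 1.34 in Het cultures 11, 15 and 18, against 0.970, 0.862 and 1.32 in WT cultures 10, 12 and 16, so the Het cultures were alike in this ratio and WT culture 16 lay close to them.

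Endothelial cells are a known source of neuropilin, ephrin-B2 and EphB4 transcripts, and neural cells of many others. Endothelial markers summed to 32.1 to 41.2 TPM in Het and 40.1 to 40.8 TPM in WT cultures. Of these, 8 of 10 exceeded 1 TPM, and 5 of 9 tested had a higher Het mean. Among them Kdr, the VEGF receptor that partners Nrp1, was at 5.44, 4.69 and 4.72 TPM in Het cultures 11, 15 and 18, against 3.40, 2.19 and 4.51 TPM in WT cultures 10, 12 and 16, while Egfl7 averaged 5.35 CPM in Het and 8.08 CPM in WT cultures. Neural and Schwann markers summed to 184 to 253 TPM in Het and 116 to 212 TPM in WT cultures, with 9 of 10 above 1 TPM and the lowest sum in WT culture 16. The Het mean was higher in 6 of 8 neural and Schwann markers tested. Among them Tubb3 was higher in every Het culture, at 125 ± 24.7 CPM in Het and 90.1 ± 19.5 CPM in WT cultures (log2 difference 0.47, SE 0.18, adjusted p = 0.368 by edgeR). Macrophage and blood markers summed to 121 to 212 TPM in Het and 137 to 183 TPM in WT cultures, with a higher Het mean in all 8 tested. Epithelial markers summed to 99.4 to 260.2 TPM in Het and 114 to 186 TPM in WT cultures, with a higher Het mean in 5 of 8 tested. Erythroid markers summed to 199 to 478 TPM in Het and 117 to 407 TPM in WT cultures, with a higher Het mean in all 5 tested. Skeletal muscle markers summed to 297 to 396 TPM in Het and 306 to 464 TPM in WT cultures, with a lower Het mean in 5 of 6 tested. None of the macrophage, epithelial, erythroid or skeletal muscle markers tested had an unadjusted p under 0.05. No endothelial, neural, macrophage or epithelial marker was at 0 in any library. The part of these cells in the differences above was not tested.

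Many guidance genes had lower levels in cultures 15 to 18 than in cultures 10 to 12, none of them past the adjusted threshold. In a model that also held genotype, 17 of 50 genes had an unadjusted p under 0.05 for lower levels in cultures 15 to 18 than in 10 to 12, beside 6.58% of all genes, and 0 of 50 for higher levels, beside 7.08%. At an adjusted p under 0.05 edgeR called 0 of the 50 and 0.0478% of all genes. The 17 included 6 Eph receptors, 6 semaphorins, 3 plexins, Efnb3 and Nrp2, at log2 differences (15 to 18 over 10 to 12) of -0.60 to -0.19. Epha7, an ephrin-A receptor of the developing nervous system and limb, had the smallest p. It measured 42.4, 26.5 and 30.4 CPM in Het cultures 11, 15 and 18, and 39.3, 38.4 and 27.8 CPM in WT cultures 10, 12 and 16. The level was lower in cultures 15, 16 and 18 than in 10, 11 and 12 without overlap, by -0.53 (SE 0.079, adjusted p = 0.116 by edgeR). Ephb6 (-0.48, SE 0.11), Efnb3 (-0.60, SE 0.14) and Ephb2 (-0.31, SE 0.087) followed.

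The direction was shared by the genotypes in most members, in comparisons with 1 culture on a side. That culture, Het culture 11 or WT culture 16, was also the later registered culture of its genotype. Run and registration therefore cannot be told apart within a genotype. The genes share these cultures and are not replicates of the comparison. In 30 of 50 genes Het cultures 15 and 18 averaged below Het culture 11 and WT culture 16 lay below the mean of WT cultures 10 and 12, beside 29.6% of all genes, and in 1 gene, Sema7a, both comparisons went up, beside 27.2% of all genes. WT culture 16 was the lowest WT culture in 37 of the 50 genes and the highest in 10, among them Epha2, Sema3e, Efnb2 and Nrp1. How often this held over all genes was not counted, so these 2 counts show no trait of the guidance genes. The count of 17 lower genes was 9 without WT culture 10 (4.37% of all genes) and 11 without WT culture 16 (4.22%). The count of 0 higher genes was 5 without Het culture 11 (11.1% of all genes), where 20 were lower (10.8%). It was 1 without Het culture 18 (6.81%), 2 with a term for Y-linked expression (9.75%) and 2 without a filter on low counts (5.62%). This split by run was chosen after seeing the data. Marker lists of other cell types also differed in level between the runs, with median log2 differences (15 to 18 over 10 to 12) of 1.37 for erythroid, 0.93 for epithelial and 0.68 for macrophage and blood markers, -0.50 for neural and -0.48 for skeletal muscle markers and -0.11 for fibroblast markers. Their part in the lower guidance gene levels was not tested.

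**Figure D4:**
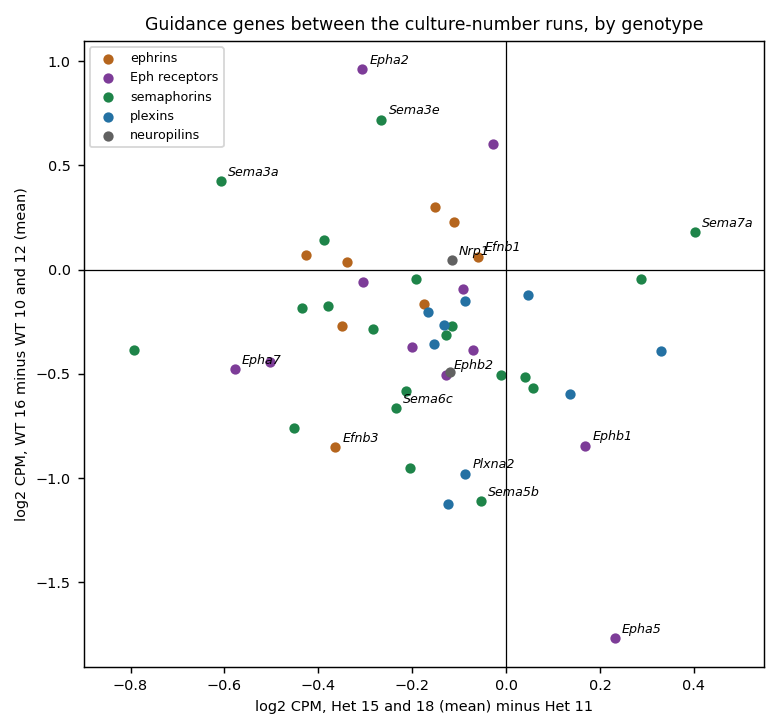
Each point is 1 of the 50 tested genes, placed by the log2 CPM difference between the culture number runs in Het cultures (horizontal, cultures 15 and 18 minus 11) and in WT cultures (vertical, culture 16 minus 10 and 12). Of the 50 points, 30 lie in the lower left and 1, Sema7a, in the upper right, while Epha2 and Sema3e stand highest on the vertical axis.

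Other genes of the same pathways gave no call in edgeR, and 10 of 82 had an unadjusted p under 0.05, or 12.2%, beside 12.2% of all genes. Of the 21 tested transducers of Eph and ephrin signals 2 were higher at that level and 0 lower, or 9.52% in all. Of all genes, 5.56% were higher and 6.65% lower at that level. Sipa1l1, a GTPase-activating protein for Rap that binds EphA4, averaged 128 ± 7.09 CPM in Het and 106 ± 7.26 CPM in WT cultures, and Abl2, a tyrosine kinase that acts on the cytoskeleton, 80.0 ± 4.84 and 64.5 ± 6.80 CPM in Het and WT (adjusted p = 0.313 by edgeR for both). Of the 27 transducers of plexins and neuropilins 0 were higher and 4 lower, namely Dpysl2, Rras, Cdk5 and Mical1. That is 14.8%, beside 12.2% of all genes in either direction. Dpysl2, which relays semaphorin 3A signals to microtubules, averaged 41.6 ± 0.956 CPM in Het and 47.4 ± 0.833 CPM in WT cultures. Rras, a small GTPase that plexins inactivate, averaged 38.5 ± 1.39 CPM in Het and 44.7 ± 2.06 CPM in WT cultures, with no overlap in either gene (adjusted p = 0.317 by edgeR for both). Cdk5 differed by -0.23 on the log2 scale (SE 0.081, adjusted p = 0.340 by edgeR) without overlap. Mical1 differed by -0.24 (SE 0.0965, adjusted p = 0.389 by edgeR) with overlapping groups.

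Among 16 co-receptors and other ligands 2 were higher, the plexin-B partner Met (0.49, SE 0.18) and Kdr (0.57, SE 0.24), and 2 lower, the neuropilin ligand gene Vegfb (-0.44, SE 0.14) and Erbb2 (-0.18, SE 0.072), each as a log2 difference with an adjusted p of 0.321 to 0.398 by edgeR. In all, 25% of this list had an unadjusted p under 0.05, beside 12.2% of all genes. Of the 19 tested genes of the netrin, Slit and repulsive guidance molecule families, which steer cells through other receptors, 0 had an unadjusted p under 0.05 in either direction, and the median log2 difference was 0.01. Without WT culture 16, 9 of these pathway genes were called by edgeR, and 7 of 51 guidance genes, beside 5.93% of all genes. The 7 were Epha2, Sema3e and Efnb2 with higher Het means and Ephb3, Ephb2, Sema5a and Sema6c with lower ones. Both WT cultures in that fit are of run 10 to 12, so genotype and run are partly confounded there. With the run as a further term 5 were called (Epha2, Sema3e, Efnb2, Sema3c and Ephb3), beside 1.93% of all genes, and 14 had an unadjusted p under 0.05, beside 16.3%.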

How the data were processed

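Messenger RNA of 6 cultures was measured, 3 Het and 3 WT, grouped by the genotype in their titles. Per the file headers, the authors deposited RSEM gene-level expected counts (estimated counts that share reads between matching genes), TPM, FPKM and effective lengths for 51826 genes. The submitters' processing notes name RSEM 1.3.1, DESeq2 and mm10, and neither aligner, annotation release nor strand setting is given in the sources. Between 7.53% and 8.80% of the deposited expected counts in each library had decimals. The authors' deposited TPM values served for levels and for limma, and their FPKM values were not used. Symbols and mm10 coordinates came from the GENCODE M21 annotation by Ensembl number, which matched 51633 genes.

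Expected counts were rounded, filtered with filterByExpr (14652 genes left), scaled with TMM and compared by edgeR's quasi-likelihood test (version 4.0.16, R 4.3.3). A call is a Benjamini-Hochberg adjusted p under 0.05 over all tested genes. SE values given with edgeR differences were derived as the size of the log2 difference over the square root of the F statistic. The 95% intervals used that SE and the t distribution. Genes had a biological coefficient of variation of 11.3% and a median SE of 0.11. Differences within runs and registered sets are means of log2 CPM (prior count 2). Alternatives used DESeq2 1.42.0 (independent filtering at 0.05), limma 3.58.1 on log2(TPM + 1) and log2(TPM + 0.1), scaling by library totals, no filter, an effective length offset, terms for run, registration or Y-linked expression, and leaving out each culture. The steps were tested on simulated counts. The 3-count floor covers counting error alone.

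The members, gene lists and tests were chosen with earlier results of these data known. Values are given for the 4 highest members of each family, up to 3 with the largest differences and all with an unadjusted p under 0.05, and for up to 4 genes of each other pathway list at that level. Values of other members that are given were chosen after they were seen. Ntn3 and Rgmc had no match by symbol and were not analysed here.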

Additional observations from a re-analysis of the deposited data

How the results depend on the processing

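No paired analysis was possible because the Het and WT cultures share no culture numbers. Of the 29 guidance genes given by rule, 25 kept their direction in all 15 alternatives chosen with the tests. The rule took some genes for their p or size in the main fit, and the alternatives reuse the same libraries. The count is therefore no separate support for the differences, and how often direction was kept over all genes was not counted. Plxnb2 turned to -0.19 with limma on either TPM scale, -0.18 with the effective length offset and -0.011 without WT culture 16 (-0.011 to 0.14 with a culture left out). Sema3a turned to -0.048 without Het culture 11 (range -0.048 to 0.38), Plxnb3 to 0.29 without WT culture 10 (range -0.58 to 0.29) and Nrp2 to 0.018 without WT culture 12 (range -0.26 to 0.018). Efnb1 turned to 0.035 in the added fit without WT culture 16 and with the run as a term. The number of all genes called, 1 in edgeR, was 112 with DESeq2, 32 without a filter on low counts, 0 with limma on log2(TPM + 1) or log2(TPM + 0.1) and 0 with the length offset. Leaving out a culture gave 0 to 896, and the added fit 291. Guidance genes called, 0 in edgeR, numbered 1 with DESeq2, 0 to 7 with a culture left out and 5 in the added fit. Those at an unadjusted p under 0.05, 12 in edgeR, numbered 6 with limma on either scale, 7 with the run as a term and 4 to 23 with a culture left out. Other pathway genes called, 0 in edgeR, numbered 0 to 9 with a culture left out and 3 in the added fit. The count of 17 guidance genes lower in cultures 15 to 18 ranged from 9 to 21 with a culture left out (4.22% to 10.8% of all genes), fits chosen after seeing the data. The log2 difference of Lztr1, -1.01, was -0.92 with limma on log2(TPM + 1), -0.94 on log2(TPM + 0.1) and -0.92 with the length offset, none of them past the adjusted threshold, and -1.06 to -0.97 with a culture left out. The cause of these shifts was not tested, except that the length offset and TPM bring in effective lengths. Depth limits the lowest members, with 0 to 15 counts a library in Epha6, Epha8 and Epha10.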
